A study of Mus musculus with 4 samples.

Results

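Trappc9, 1 of the 11062 genes with allele counts in the series, had 168 of its 305528 SNP positions and 3890 allele-specific reads. Its members were all rows that carried its name, exonic and intronic. The reads came from gonadal adipose tissue, a fat depot beside the gonads, of F1 mice from both directions of the cross between the inbred strains C57BL/6J (B) and DBA/2J (D). The mother's strain is written first, so the paternal allele is D in BxD mice and B in DxB mice. The 4 samples were RNA pools of chow-fed mice, with 3 animals in each BxD pool and in the pool of DxB males and 2 in that of DxB females, so each combination of cross and sex was 1 pool, and individual animals cannot be told apart. The labels give an age of 8 weeks and the study's methods 16 weeks. Each library was split into its B and D reads, which gave 8 allele libraries and, in every pool, a comparison of alleles within the same RNA.

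Trappc9 encodes a subunit of a TRAPP complex, which tethers vesicles and activates Rab GTPases, and it is also known as an activator of NF-kappa-B signalling. In an imprinted gene the parental origin of an allele decides whether it is transcribed. The locus on mouse chromosome 15 is known to be imprinted: an intron of Trappc9 holds Peg13, a non-coding RNA gene transcribed from the paternal chromosome, and neighbouring genes are transcribed mainly from the maternal chromosome in brain. Reads over introns come from unspliced RNA or from other transcripts that start or end there, whereas coding SNPs are read mostly from spliced messenger RNA, so the parental share at each position is of interest.

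The pools gave between 4219333 and 5569347 allele-specific reads, of which between 3353668 and 4254813 were counted at exonic SNPs, and B reads exceeded D reads there by a ratio of 1.16 to 1.22. Cross and sex disagree between label and file name in 2 samples. The file-name identity was used, because over 1996 genes it gave the same counts as the study's own gene table for all of them, against 13.8% by the label in each of those 2 samples. The chromosome numbered 22 in the files held 119 genes with exonic SNPs, and the 106 with a RefSeq symbol are all X-linked. Over these 119 genes the D share was 32.6% and 31.6% in the female pools. Among males it was 3.44% in BxD and 61.0% in DxB. The X chromosome of DxB males comes from the D mother, yet that pool had 4281 B and 6690 D reads there. The source of these B reads was not tested. Of 10 adipocyte markers 3 had counted exonic reads (Lep, Cidec and Slc2a4, together 21135 to 39847 reads per pool). The macrophage marker Cd68 had 962 to 1819 reads per pool and the endothelial marker Pecam1 122 to 221. Of 4 neuronal markers 1 had any (5 reads in all), and 17 reads of 1 epididymal marker were found in the DxB male pool and none elsewhere. A marker without reads may have no SNP to count, so these zeros do not show that a cell type was absent.

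In the mm9 build with GENCODE M1, Trappc9 lies on the minus strand at chr15:72420051-72891634, with 5 annotated transcripts, the longest of 22 exons. At all 168 SNPs the B base was the mm9 base, and 1 SNP lists the same base for both strains. Coverage was uneven: 86 SNPs had 1 read, 23 had 10 or more, and the median was 1 read. In bulk tissue, fewer cells of a type and less RNA per cell cannot be told apart, so counts at a position do not show how many cells held the RNA. The SNPs fell into 2 coding SNPs, 21 intronic SNPs inside a region of 10802 bases (chr15:72629953-72640754) and 145 intronic SNPs outside it. The gene and the region were selected on these same paternal shares, so the parental values at Trappc9 are a description and carry no test. Inside the region lay 75.8% of the gene's reads, at the coding SNPs 15.7% and at the other intronic SNPs 8.51%.

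The region lies in intron 16 of the longest transcript (chr15:72587789-72733986, 146.2 kb). At its 3′ end the files list an exon that is the last exon of a shorter Trappc9 transcript (chr15:72629954-72631832 in GENCODE), coding at chr15:72631569-72631832 and untranslated in the rest. At its 5′ end they list a second exon, chr15:72636029-72640754, of 4726 bases. No GENCODE M1 exon covers that second exon, and its SNPs are annotated as intronic in the files. Peg13 is not among the genes of the files. RefSeq lists it within the bounds of Trappc9 on GRCm38.p6, a build whose positions were not carried over to mm9, so whether the second exon belongs to Peg13 was not tested.

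Both coding SNPs are synonymous and lie in exons 10 and 9 of the longest transcript. Their exons are shown because they hold the only coding SNPs of Trappc9 with counts in these files. They are given in mm9 on the minus strand, 5′ to 3′, with the B base of the SNP in capitals. The SNP T72783513C (plus-strand B base, mm9 position, plus-strand D base) is base 37 of exon 10, chr15:72783404-72783549, and changes an arginine codon from CGA to CGG. The SNP G72793998A is base 119 of exon 9, chr15:72793990-72794116, and changes a proline codon from CCC to CCT.
Exon 10: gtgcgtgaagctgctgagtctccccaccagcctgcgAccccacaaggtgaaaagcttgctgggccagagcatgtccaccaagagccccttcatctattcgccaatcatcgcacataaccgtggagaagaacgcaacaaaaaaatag
Exon 9: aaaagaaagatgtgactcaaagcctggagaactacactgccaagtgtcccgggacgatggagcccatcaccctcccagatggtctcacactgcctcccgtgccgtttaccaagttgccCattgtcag

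Of the region, 3 of the 4 SNPs of the second exon (the window of G72636939A also holds A72636933G), the deepest SNP between the exons and the first SNP of the untranslated exon are shown next, with 2 SNPs beyond the region's 3′ end, since the contrast with the coding exons rests on them. These windows are on the plus strand of mm9, with the B base of the SNP in capitals.
A72640049G, chr15:72640019-72640079, second exon: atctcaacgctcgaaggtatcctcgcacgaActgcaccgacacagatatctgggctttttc
A72637471G, chr15:72637441-72637501, second exon: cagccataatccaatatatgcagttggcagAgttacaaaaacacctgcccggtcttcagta
G72636939A, chr15:72636909-72636969, second exon: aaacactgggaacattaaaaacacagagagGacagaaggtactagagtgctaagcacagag
T72633710C, chr15:72633680-72633740, between the exons: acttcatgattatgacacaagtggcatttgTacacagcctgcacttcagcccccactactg
C72630094T, chr15:72630080-72630108, untranslated exon: cactcggcaacagtCagtcagggatgagg
G72629162C, chr15:72629132-72629192, outside: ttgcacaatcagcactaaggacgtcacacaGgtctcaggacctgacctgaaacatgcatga
A72623128G, chr15:72623098-72623158, outside: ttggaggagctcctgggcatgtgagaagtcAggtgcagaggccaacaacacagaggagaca

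At the coding SNPs both parental alleles were read, and inside the region nearly all reads were paternal. The coding SNPs had 331 maternal and 278 paternal reads, a paternal share of 45.6% (95% Wilson interval 41.7 to 49.6%). Inside the region there were 18 maternal and 2932 paternal reads, a paternal share of 99.4% (99.0 to 99.6%). Intronic SNPs outside the region had 142 maternal and 189 paternal reads, a paternal share of 57.1% (51.7 to 62.3%). These intervals treat each read as independent and do not cover the spread between pools. Mates of a pair were counted as single reads and neighbouring SNPs can share reads, so the intervals are too narrow even for counting error. Summed over all its rows Trappc9 was 87.4% paternal, a value that mixed these classes in the proportions of their reads. Among all genes with at least 100 intronic reads, 3357 genes, the median intronic paternal share was 49.7% and the central 95% lay between 39.6% and 59.0%.

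**Figure D1:**
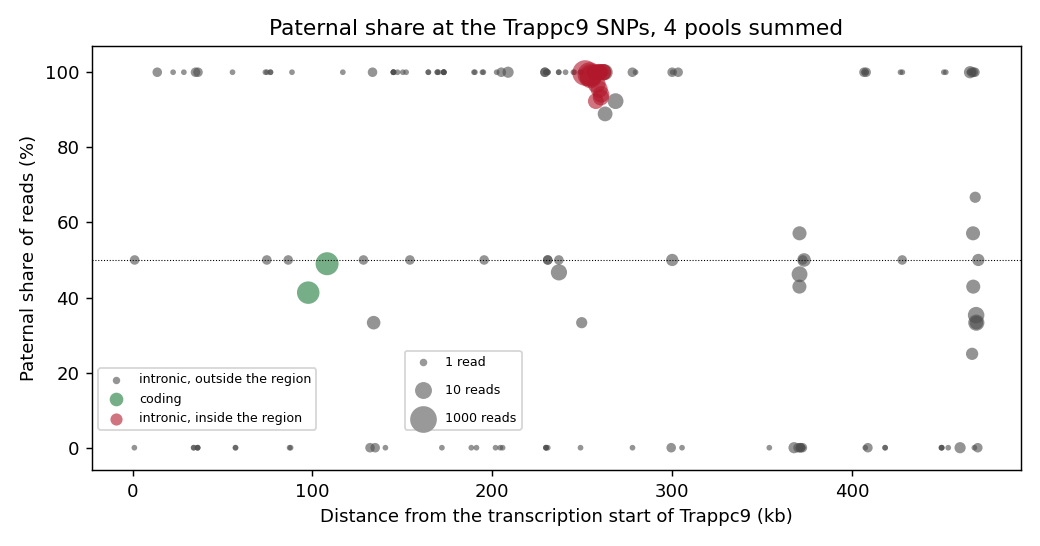
Paternal share of reads (%, y axis) at each of the 168 Trappc9 SNPs against the distance from the transcription start in kb (x axis), with the 4 pools summed and the point area growing with the number of reads. The 21 SNPs inside the region lie between 92.3% and 100% and the 2 coding SNPs at 41.3% and 49.0%, while most SNPs outside the region had too few reads for a share.

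Every pool showed the difference between the classes. The coding paternal share was 41.1% in BxD females (66 maternal and 46 paternal reads), 52.5% in DxB females (86 and 95), 39.3% in BxD males (91 and 59) and 47.0% in DxB males (88 and 78), with a mean of 45.0% ± 5.99 (SD, n = 4 pools). Inside the region it was 99.9% in BxD females (1 and 854), 98.3% in DxB females (14 and 814), 99.9% in BxD males (1 and 700) and 99.6% in DxB males (2 and 564), with a mean of 99.4% ± 0.751 (SD, n = 4 pools). The lowest pool inside the region was above the highest coding pool, but the region was selected on these shares, so this gap is a description only. The DxB female pool, which held RNA of 2 animals, contributed 14 of the 18 maternal reads.

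Since the paternal allele was D in the BxD pools and B in the DxB pools, the strain of the read base inside the region switched with the direction of the cross. The BxD female pool had 1 B read and 854 D reads there, and the BxD male pool 1 and 700. The DxB female pool had 814 B reads and 14 D reads, and the DxB male pool 564 and 2. Summed over pools the region had 1380 B and 1570 D reads. If the labels rather than the file names named the pools, the DxB female and BxD male libraries would trade places, and the share of paternal reads in the region would be 48.6%, with 2 pools almost wholly paternal and 2 almost wholly maternal.

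The second exon, from 72636029 to 72640754, carried 70.1% of all Trappc9 reads at 4 SNPs. Its paternal share was 99.9% in BxD females, 98.7% in DxB females, 100% in BxD males (649 paternal and no maternal reads) and 99.6% in DxB males, from 13 maternal and 2712 paternal reads in all. The SNP A72640049G, near its 5′ end, had 3 maternal and 1453 paternal reads. All 3 of those maternal reads were in the DxB female pool, where 344 reads were paternal. The SNP A72637471G had 5 maternal and 793 paternal reads, and its paternal reads numbered 175 in BxD females, 296 in DxB females, 167 in BxD males and 155 in DxB males. The neighbouring SNPs A72636933G (3 and 227) and G72636939A (2 and 239) lie closer together than a read is long, so many of their reads can be the same. The deepest of the 4 SNPs had 6.33 times the reads of the least deep.

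Outside the second exon the region was read far less, and the same parent prevailed. The 17 remaining SNPs inside the region had 5 maternal and 220 paternal reads (97.8%). The untranslated part of the last exon of the shorter transcript had 4 SNPs with 2 maternal and 63 paternal reads (96.9%, 89.5 to 99.2%). The 13 SNPs between the exons had 3 maternal and 157 paternal reads (98.1%). Of these, T72633710C was the deepest with 1 maternal and 31 paternal reads. Over the whole region 12 SNPs had no maternal read, and single SNP shares ranged from 92.3% to 100%.

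The values at the borders of the region differed between its sides. On the 3′ side the first SNP inside, C72630094T, had no maternal and 16 paternal reads, and the first SNP outside, C72629556T, had no maternal and 2 paternal reads. Farther out, G72629162C had no maternal and 14 paternal reads, T72628939C 1 and 8, and A72623128G 1 and 12. The 4 SNPs up to 10 kb outside on this side were thus 94.7% paternal (82.7 to 98.5%), with 9 paternal and no maternal reads in BxD females, 12 and 1 in DxB females, 8 and 0 in BxD males and 7 and 1 in DxB males. The high paternal share ran past the 3′ border by which the region was set.

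On the 5′ side the first SNP inside was A72640049G, and the first outside, A72641950G, had 2 maternal reads and 1 paternal read. The 6 SNPs up to 10 kb outside on this side had 3 maternal and 5 paternal reads in all. Their share was 62.5% with an interval of 30.6 to 86.3%, from 8 reads, and a difference from the other sets was not tested.

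**Figure D2:**
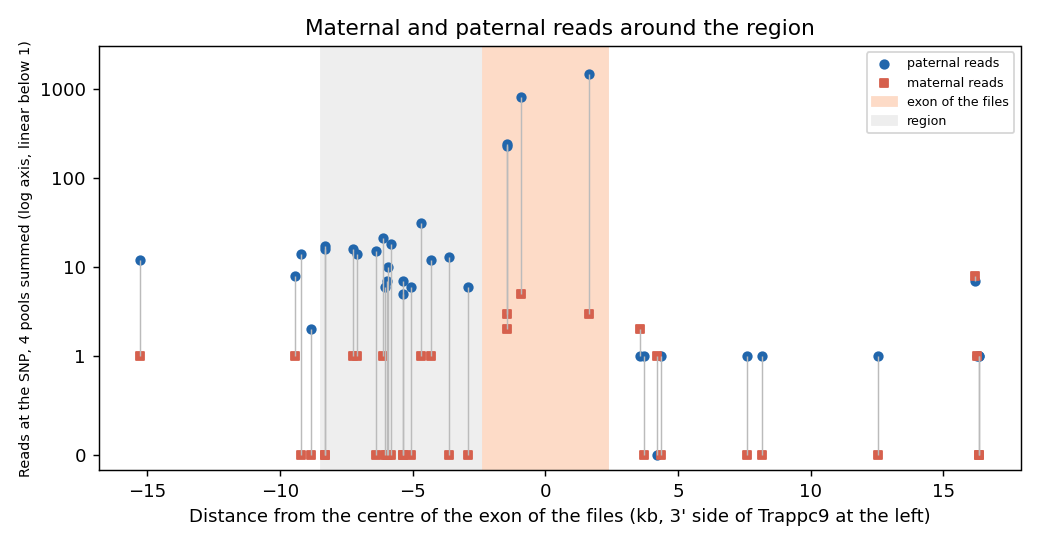
Maternal (squares) and paternal (circles) reads at each SNP, 4 pools summed (y axis, logarithmic above 1), against the distance in kb from the centre of the second exon of the files (x axis, 3′ side of Trappc9 at the left), with the region in grey and the exon in orange. Paternal reads reach 1453 at a single SNP of the exon, no SNP shown inside the region has more than 5 maternal reads, and the paternal excess continues over the 4 SNPs beyond the 3′ border.

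Away from the region the intronic reads of Trappc9 came from both parents. On the 3′ side beyond 10 kb 54 SNPs had 91 maternal and 74 paternal reads (44.8%, 37.5 to 52.5%), and the pools lay between 37.0% and 51.4%. Most of these reads were in intron 19 (30 maternal and 17 paternal) and in intron 20 (54 and 47). On the 5′ side 87 SNPs had 49 maternal and 79 paternal reads (61.7%, 53.1 to 69.7%). Intron 16, without the region and the 10 kb past its 3′ border, had 30 maternal and 58 paternal reads over both sides.

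The 5′ side was the least even among pools. Its paternal share was 43.8% in BxD females (32 reads), 57.5% in DxB females (40 reads), 72.2% in BxD males (36 reads) and 80.0% in DxB males (20 reads). Both male pools were above both female pools. With 2 pools of each sex an exact permutation test cannot give a two-sided p below 0.333, so the difference was not tested further. One SNP of this side, A72654602G, had 15 reads, all of B, of which 8 were maternal and 7 paternal.

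When the 4 SNPs next to the 3′ border were left out, an alternative chosen after the data were seen, the intronic reads outside the region were 52.2% paternal (140 maternal and 153 paternal). Without the DxB female pool the share inside the region was 99.8%, that outside 57.1% and that at the coding SNPs 42.8%.

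**Figure D3:**
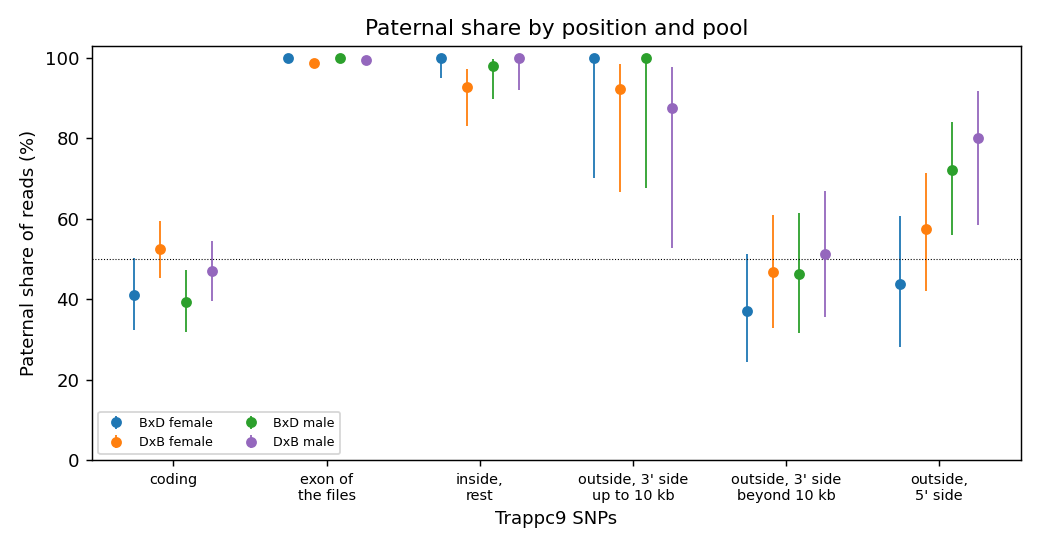
Paternal share of reads (%, y axis) for 6 sets of Trappc9 SNPs (x axis), with 1 point for each pool and its 95% Wilson interval as the bar. The 3 sets from the second exon to 10 kb past the 3′ border lie at 87.5% or more in all pools, while the coding SNPs lie between 39.3% and 52.5% and the 3′ side beyond 10 kb between 37.0% and 51.4%.

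The coding share differed somewhat between the crosses. It was 40.1% in the BxD pools together and 49.9% in the DxB pools together, and both BxD pools (41.1% and 39.3%) were below both DxB pools (52.5% and 47.0%). Read as strain, the coding SNPs had 330 B and 279 D reads, and the B share had a mean of 54.8% ± 6.27 (SD, n = 4 pools). T72783513C had 176 maternal and 169 paternal reads, a paternal share of 49.0%, and G72793998A 155 and 109, a share of 41.3% (35.5 to 47.3%).

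The strain difference was not used to choose the gene and could be tested. Across 21356 SNP classes of genes, 12.3% differed between D and B at an adjusted p below the threshold (edgeR quasi-likelihood test, Benjamini-Hochberg). None of the 3 classes of Trappc9 was among them, and none had an unadjusted p under 0.05. The log2 ratio of D to B was -0.09 ± 0.27 (SE) at the coding SNPs (adjusted p = 0.899 in edgeR), and -0.11 ± 0.26 outside the region (adjusted p = 0.859 in edgeR). Inside the region it was 0.00 ± 1.16 (adjusted p = 0.999 in edgeR). There the strain of the reads switched with the cross and the standard error was large. The test could have shown only a large strain difference there, so the missing call says little. In these tests close SNPs of an exon were counted once, which left 2685 reads inside the region and 306 outside. In the table of 7988 genes, which counts exonic SNPs only, Trappc9 carried 344 maternal and 2800 paternal reads, and the second exon made up most of them because the files list it as an exon. Its gene-level log2 ratio of maternal to paternal reads was -2.98 ± 0.22, while its coding SNPs were 45.6% paternal.

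The genes next to Trappc9 were examined from a list of 10 locus genes. Exonic reads were counted for 5 of them, and 4 genes of all 7988, that is 0.0501%, passed the threshold between the parental alleles in edgeR (Sgce, Meg3, H13 and Trappc9, for which this is no test because it was selected on this contrast). With the 2 allele libraries of a pool paired by a pool block no gene passed (37 at an unadjusted p under 0.05 in edgeR), and 0 or 1 genes passed when any 1 pool was left out. Of the listed genes, Peg13, Kcnk9, Col22a1 and Fam135b had no allele counts and could not be examined. None of the 5 neighbours with counted exonic reads was called (0 at an unadjusted p under 0.05 in edgeR, and 0 called by DESeq2). Their adjusted p was 1.0 in edgeR. Their log2 ratios of maternal to paternal reads ran from -0.13 to 0.43 with a median of 0.32, against a median of -0.0059 over all genes. Standard errors were 0.372 for Dennd3, 0.394 for Eif2c2 and 0.455 for Gpr20, so a modest parental difference could have been missed.

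Chrac1, a histone-fold subunit of a chromatin remodelling complex, had 124 maternal and 91 paternal reads, with paternal shares of 37.3% to 52.8% over the pools. Eif2c2, now named Ago2, the slicing Argonaute of RNA interference, had 71 and 54 reads and shares of 30% to 53.8%. Ptk2, the focal adhesion kinase, had 311 and 286 reads and the narrowest standard error, a log2 ratio of 0.09 ± 0.14. Dennd3, a guanine nucleotide exchange factor for a Rab GTPase, had 111 and 86 reads, and its introns 247 and 215. Gpr20, an orphan receptor, had 37 and 39 reads. At Slc45a4, a transporter whose exons overlap another gene and which was left out of the test, 172 maternal and 162 paternal reads were listed. At the exonic SNPs of the 5 tested neighbours no pool exceeded 61.5%, and the coding shares of Trappc9 fell within their range. In their intronic class, taken from the annotation with close SNPs of an exon counted once, pools were more spread. Shares ran from 29.7% to 71.4% in Ptk2 (153 reads) and from 34.9% to 63.2% in Dennd3 (419 reads). In both genes the BxD pools were below the DxB pools, with 97 B and 56 D reads in Ptk2 and 240 and 179 in Dennd3.

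**Figure D4:**
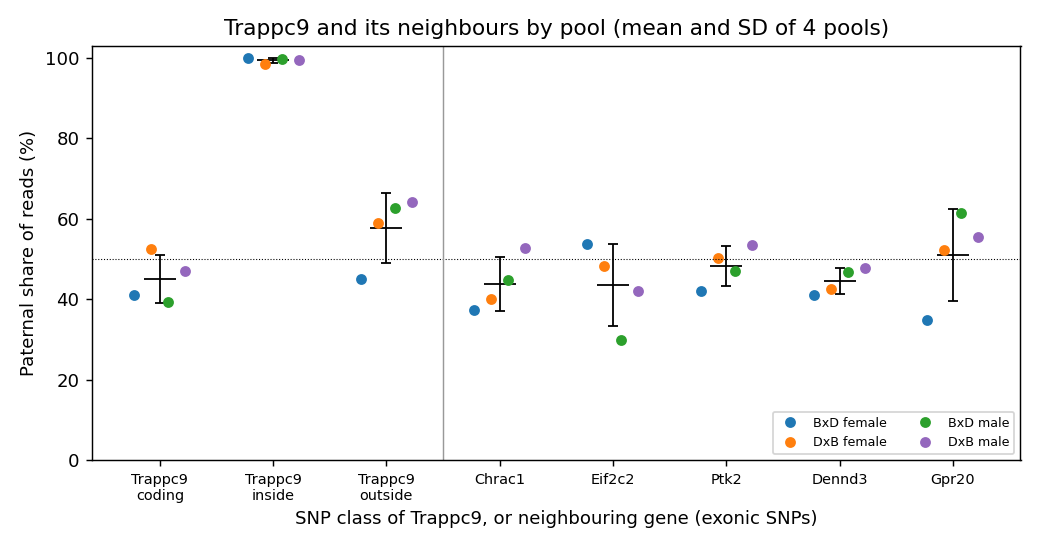
Paternal share of reads (%, y axis) in each of the 4 pools for the 3 SNP classes of Trappc9 (left of the grey line) and for exonic SNPs of 5 neighbouring genes, with the mean and SD of the pools in black. With close SNPs of an exon counted once, the region stands at 98.4% or more in every pool, and the neighbours' pools lie between 30% and 61.5%.

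For the strain contrast 17.7% of the 7988 genes were called in edgeR. Of the 5 neighbours none was called (0 at an unadjusted p under 0.05, and 0 by DESeq2), with log2 ratios of D to B between -0.08 and 0.08.

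Among 14 genes of the TRAPP complexes, 6 had counted exonic reads, and none differed between parents (0 at an unadjusted p under 0.05 in edgeR, and 0 by DESeq2), with shares from 42.2% to 52.8%. By strain 2 of the 6 were called, both higher from B. Trappc1, a core subunit, had 267 B and 111 D reads at 1 SNP, a log2 ratio of -1.13 ± 0.19 (adjusted p = 0.0011 in edgeR). Its 4 intronic SNPs had 85 B and 91 D reads, so the B excess was seen at the 1 exonic SNP only. Trappc10, a subunit of the TRAPPII complex, had 208 reads of B and 0 of D at a single SNP, which is at least 69.3-fold in reads against a limit of 3 counts over the 4 pools (adjusted p = 1.21e-05 in edgeR). No read carried the listed D base. A D allele that was not transcribed and a base that does not differ between the strains cannot be told apart there. The 4 intronic SNPs of Trappc10 also had 19 B and 0 D reads. The study sequenced D DNA at a subset of SNPs read only from B, and the listed D base was found at none of them. Trappc10 was not among the genes sequenced. The deepest member was Ttc15, now named Trappc12, with 1484 B and 1442 D reads. Its log2 ratio was 0.10 ± 0.12, above 0 because each allele library was scaled to its own size. Its introns had 964 B and 518 D reads at 192 SNPs. Whether these strain ratios differ from that of the Trappc9 coding SNPs was not tested.

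Of 10 genes of NF-kappa-B signalling, 7 had counted exonic reads, and none differed between parents (0 at an unadjusted p under 0.05 in edgeR, and 0 by DESeq2), with shares from 45.2% to 51.0%. Ikbkb, the IKK-beta kinase to which the Trappc9 protein is known to bind, had 349 maternal and 288 paternal reads. By strain Ikbkg, the scaffold subunit of the IKK kinase, and Nfkb2, the p100 precursor, were called higher from B. Nfkb2 had 623 B and 444 D reads, a log2 ratio of -0.36 ± 0.11 (adjusted p = 0.0438 in edgeR), and the call was lost in DESeq2 (adjusted p = 0.0606) and without any 1 of the pools (adjusted p between 0.105 and 0.229 in edgeR). For Ikbkg all 173 reads were of B, which is at least 57.7-fold in reads (adjusted p = 7.04e-06 in edgeR). It is X-linked, and the DxB male pool, whose X chromosome came from a D mother, also had reads of B alone (33). With no B copy of the gene in that pool, the ratio at these SNPs cannot be read as a strain difference.

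The difference between SNPs annotated as intronic and coding SNPs was larger in Trappc9 than in most genes, a comparison that uses the shares it was selected on. Of the 3281 intronic reads of Trappc9, 2725 came from the second exon, whose SNPs are annotated as intronic. Outside the region the intronic share was 57.1%, against 45.6% at the coding SNPs, so the difference rested mainly on that exon. Over 2739 genes with at least 10 coding and 10 intronic reads in every pool, the intronic share minus the coding share was 53.8 points for Trappc9 in BxD females, 41.5 in DxB females, 56.6 in BxD males and 49.2 in DxB males. The medians over all these genes were between -0.424 and 0.567 points, and between 11 and 20 genes exceeded Trappc9 in a pool. The gene whose pattern over the 4 pools was nearest was H13, a signal peptide peptidase gene, with a coding share of 26.0% and an intronic share of 54.4%. Its Euclidean distance to Trappc9 was 44.9 points. Btaf1 followed at 58.2 points, Qpct at 64.7, Hdgfrp3 at 65.9 and Tmem160 at 67.4, all with smaller mean differences than Trappc9. Over single SNPs, 30680 had at least 10 reads in every pool, and 27 of them were at least 90% paternal in every pool. Of these 4 were the SNPs of the second exon in Trappc9, and 22 lay in Plagl1 and 1 in Sgce.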

How the data were processed

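Allele counts of 4 adipose RNA pools were analysed. What the authors deposited are raw counts per SNP and allele of uniquely mapped reads, aligned as single reads to mm9 with up to 3 mismatches by mrsFAST and then TopHat (version 1 in the submitters' processing notes). Depth was 4219333 to 5569347 reads per pool, so a share over few reads is known at best within the Wilson interval (95%) given with it. Trappc9, the region and the gene lists were chosen with earlier results of these data known. Every list gene with a call is named, and otherwise the members with most reads.

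Reads were assigned to parents by the cross in the file name and summed per class. For tests, exonic SNPs were those the files give an exon, the first of SNPs within 18 bp was kept, and alleles were summed per gene or class. The 8 allele libraries were tested with edgeR 4.0.16 (TMM, quasi-likelihood, Benjamini-Hochberg, 0.05) in R 4.3.3, with DESeq2 1.42.0 as an alternative. Both were tested on simulated data. Pools have no replicate of their cross and sex, so p-values rest on the spread between them. Other alternatives were other SNP filters, 1 library size per pool, the pool as a block, strain as a covariate, the label identity and each pool left out. Tables used Python 3.11.15, pandas 2.3.3, numpy 2.4.6 and scipy 1.17.1. Sequences and exons are from mm9 and GENCODE M1, and gene names from RefSeq on GRCm38.p6.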

Additional observations from a re-analysis of the deposited data

Results flagged for a closer look

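Among the paternal shares of 11 sets of SNPs or genes over the 4 pools, 2 had 1 pool far from the other 3. The DxB female pool was 98.3% paternal over the intronic SNPs inside the region, against 99.6% to 99.9% in the other pools. The same pool was 92.1% paternal over the 13 SNPs between the exons of the region, from 3 maternal and 35 paternal reads, while the other 3 had no maternal read there. How often chance gives such a gap among shares this near 100% was not tested, and the sets overlap in their reads. That pool held RNA of 2 animals, and the part of this in the result was not tested.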

How the results depend on the processing

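The paternal share stayed within 1 SD of its value in 11 of 11 alternatives at the coding SNPs (42.8% to 49.4%), in 11 of 12 inside the region and in 12 of 13 outside it. The exceptions came with the labels in place of the file names, which trades the parents in 2 pools: 48.6% inside and 46.5% outside. Both coding SNPs passed every SNP filter, so those filters could not move the coding share. The number of genes called between parents was least stable. It was 7 in DESeq2 and 7 with a covariate for strain, 2 with all SNPs and 2 with exonic SNPs by annotation, 0 with the pool as a block (37 at an unadjusted p under 0.05 in edgeR) and 0 by the labels (38 unadjusted), and 0 to 1 with a pool left out. Between strains 2175 genes were called with the pool as a block against 1414. The strain calls of Trappc1, Trappc10 and Ikbkg held in 11 of 11 alternatives each, though the limits given for each of these genes remain. No paired analysis by replicate number was possible because each group has 1 pool.

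Inside the region the strain of the reads switched with the cross, so the test of D against B had little power there. The log2 ratio of D to B in Trappc9 passed the threshold in none of the 10 alternatives of any class, and its sign was not stable. With a pool left out it ran from -0.273 to 0.0314 at the coding SNPs, from -1.03 to 1.11 inside the region and from -0.419 to 0.0544 outside. Inside the region it was -0.0287 in DESeq2, -0.124 with 1 library size per pool and -0.000353 with at least 10 reads. Among genes not called, signs also turned for ratios near 0. By the labels the log2 ratio of maternal to paternal reads was -0.032 for Chrac1, -0.14 for Eif2c2 and 0.425 for Gpr20. With 1 library size per pool the D to B ratio was -0.0472 for Eif2c2, -0.11 for Dennd3, -0.0642 for Gpr20 and -0.0242 for Ttc15, and with all SNPs 0.00625 for Chuk. With a pool left out D to B ran from -0.321 to 0.203 for Chrac1, -0.178 to 0.409 for Eif2c2, -0.16 to 0.254 for Dennd3, -0.318 to 0.318 for Gpr20 and -0.0617 to 0.0419 for Chuk, and maternal to paternal from -0.4 to 0.217 for Gpr20. The cause of these changes was not tested. Depth limits single intronic SNPs outside the region, whose median was 1 read.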
